A study of Mus musculus with 6 samples.

Results

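The transcripts described here encode 10 proteins that make, sense or remove prostaglandins, read in synovial fibroblasts (SFs) with and without the drug amisulpride. Members were taken by gene name from the deposited table, and all 10 were found among its 49548 genes. Each of them also passed the filter on low values (10 or more in 3 or more libraries), which 12614 genes passed in all. The SFs, connective tissue cells that line the joint, were grown from ankle joints of 8-week-old hTNFtg mice on a mixed CBA C57BL/6J background. These mice carry a human TNF transgene in all groups, so every value below is from cells that had developed under human TNF, and no wild-type cells were part of the comparison. Cells carrying CD45, the surface marker of leukocytes, had been depleted from the cultures at the first passage. The untreated group had 3 libraries, which the labels give as receiving no treatment and the methods as receiving vehicle. The amisulpride group had 3 libraries from cells kept for 48 h with 500 μM amisulpride, an antipsychotic drug whose known targets are receptors for dopamine and serotonin. The methods call the libraries biological replicates without tying each to a separate mouse, so p-values measure the spread between these libraries, which may in part be technical.

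Prostaglandins are short-lived lipid signals that act close to the cells releasing them. Cytosolic phospholipase A2 frees arachidonic acid from membranes, a cyclooxygenase (COX) turns it into prostaglandin H2, and terminal synthases turn that into prostaglandin E2 (PGE2) or prostacyclin. PGE2 acts on receptors of the EP family, is taken up by a transporter and is inactivated by 15-hydroxyprostaglandin dehydrogenase. In the inflamed joint PGE2 is known for its part in pain and swelling, and SFs are among the cells that release it when exposed to TNF.

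Levels are given as normalised counts, that is reads per gene normalised by the authors and rounded before deposit. A single scaling factor per library was inferred from the spacing of low values. Reads came from the 3′ ends of transcripts, so levels of different genes were set side by side without dividing by gene length. Normalised counts summed to 3.83 to 4.5 M per library, which corresponds to approximately 2.52 to 4.71 M reads. The limit that a count of 0 allows (3 reads, counting error only) was 2.50 to 5.37 normalised counts. Amisulpride replicate 3 had the fewest reads and stood apart from the others, with Pearson correlations across genes of 0.882 to 0.909 against 0.903 to 0.959 among the other 5 libraries, so results that rest on it are also given without it. The label of fibroblasts was checked on 15 marker genes. All of them were above 0 in every library, with sums of 75368 to 86953 in untreated and 67621 to 101044 in amisulpride libraries. S100a4 was the largest part in untreated libraries, at 29324, 24374 and 25274 against 13948, 10468 and 8035 with amisulpride. Col1a1 went the other way, at 10814, 15684 and 23007 against 17537, 17397 and 35599. The lowest was Fap, at 7, 3 and 10 against 5, 19 and 29. Of 17 myeloid markers all were above 0 in every library as well, with sums of 3069 to 6063 and 2922 to 5427. The highest was Lyz2, at 3046, 1733 and 2188 against 3287, 1879 and 1394. Ptprc, which encodes CD45, was low at 38, 12 and 18 against 23, 5 and 5. Among 12 endothelial markers Cdh5, Cldn5 and Tie1 were at 0 throughout, and the sum was 80 to 107 in untreated and 27 to 68 in amisulpride libraries. Most of that sum was Egfl7, at 66, 84 and 78 against 50, 59 and 25. Mast cell markers summed to 1 to 11 and 0 to 12, with Cpa3, Fcer1a, Ms4a2 and Tpsb2 at 0. The part of other cell types in the results below was not tested, and in bulk RNA fewer cells of a type and less RNA per cell cannot be told apart.

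Across the pathway, Ptgs2, which encodes the inducible cyclooxygenase COX-2, and Hpgd, which encodes the dehydrogenase that inactivates PGE2, fell with amisulpride at the study thresholds (a log2 fold change of 1 or more in either direction, together with p under 0.05 before adjustment). No member was higher at these thresholds with all 6 libraries. Without untreated replicate 1, Ptgis was (log2 fold change of 1.24). The 2 of 10 lower members stand against 3.01% of all tested genes, and the 0 of 10 higher members against 2.69%. An unadjusted p-value under 0.05 was reached by 4 members, Ptgs1, Ptgs2, Ptger4 and Hpgd, all lower, against 5.77% of all genes in that direction and 5.11% in the other. After Benjamini-Hochberg adjustment over all genes in limma 0 of 10 members were under 0.05, against 0.285% of all genes. With the replicate number as a block, Ptgs2 alone passed, against 2.08% of all genes. The fitted log2 fold change was below 0 for 9 of 10 members, against 49.9% of all genes, and its median was -0.50 over the members and 0.0016 over all genes. The sign of Ptges, Ptges2 and Ptger2 turned in some fits that leave out a library. Members were chosen with earlier results of these data known, so these counts are not independent evidence. Ptgs2, Ptges3, Ptger4 and Hpgd had all 3 amisulpride values under all 3 untreated ones, which held for 8.66% of all genes. None had the reverse order, which held for 7.80% of all genes.

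**Figure D1:**
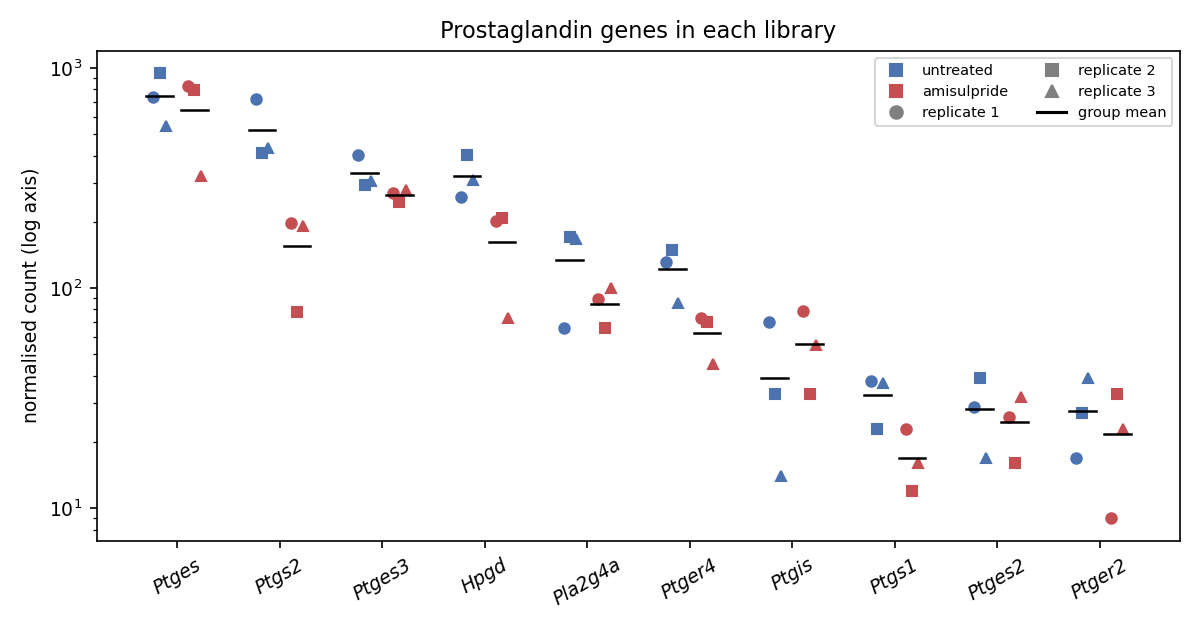
Normalised count (log10 axis) of each of the 10 prostaglandin genes in every library, ordered by level, with untreated libraries in blue, amisulpride libraries in red, a marker shape for each replicate number and bars at the group means. The 3 amisulpride points lie below the 3 untreated points for Ptgs2, Ptges3, Ptger4 and Hpgd, and overlap with them or touch them for the other genes.

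Before the values, the sequence in front of 4 members is shown because the results turn on them: Ptgs2 and Hpgd passed the study thresholds, Ptger4 had separated groups, and Ptges was the most abundant member. Each line runs from 250 bases before to 30 bases after the start annotated by RefSeq on GRCm38.p6, 5′ to 3′ along the strand of the gene, with motif matches in capitals. The windows are chr1:150099781-150100060 on the plus strand for Ptgs2, chr2:30903268-30903547 on the minus strand for Ptges, chr15:5244158-5244437 on the minus strand for Ptger4 and chr8:56294302-56294581 on the plus strand for Hpgd.
Ptgs2: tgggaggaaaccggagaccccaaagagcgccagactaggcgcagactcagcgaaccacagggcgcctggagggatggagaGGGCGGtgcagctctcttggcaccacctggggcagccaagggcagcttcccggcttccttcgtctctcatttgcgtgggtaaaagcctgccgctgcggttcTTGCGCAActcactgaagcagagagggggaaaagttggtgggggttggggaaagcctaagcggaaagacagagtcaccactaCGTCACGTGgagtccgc
Ptges: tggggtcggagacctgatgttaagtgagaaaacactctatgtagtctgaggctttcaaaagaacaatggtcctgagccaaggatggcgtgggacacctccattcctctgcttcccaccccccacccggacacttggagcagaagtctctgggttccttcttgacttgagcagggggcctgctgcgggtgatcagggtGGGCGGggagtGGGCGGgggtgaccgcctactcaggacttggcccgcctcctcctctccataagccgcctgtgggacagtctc
Ptger4: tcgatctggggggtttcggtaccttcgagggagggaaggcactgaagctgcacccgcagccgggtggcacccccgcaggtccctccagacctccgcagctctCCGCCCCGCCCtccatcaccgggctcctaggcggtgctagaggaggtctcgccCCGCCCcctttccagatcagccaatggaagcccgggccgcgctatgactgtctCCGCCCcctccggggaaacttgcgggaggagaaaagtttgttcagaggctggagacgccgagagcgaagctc
Hpgd: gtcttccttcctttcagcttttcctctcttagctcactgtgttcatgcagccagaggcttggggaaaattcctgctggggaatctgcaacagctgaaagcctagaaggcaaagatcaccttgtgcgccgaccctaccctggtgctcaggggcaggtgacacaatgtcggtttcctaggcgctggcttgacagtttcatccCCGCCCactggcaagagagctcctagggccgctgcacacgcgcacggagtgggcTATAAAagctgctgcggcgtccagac
These windows were searched on both strands for the core TGACG of the cAMP response element (CRE), the E-box CACGTG, the C/EBP palindrome TTGCGCAA, the TATA box TATAAA, the GC box GGGCGG and the NF-kB consensus.

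The Ptgs2 window held 4 motifs. The C/EBP palindrome lay at -69 to -62, counted from the annotated start, a GC box at -170 to -165, a CRE core on the reverse strand at 14 to 18 and an E-box at 17 to 22 that overlaps the CRE core. The palindrome was present in 0.18% of 32841 mouse promoter windows of the same length, the CRE core in 19.9%, the E-box in 6.80% and the GC box in 34.7%. The Ptges window held 2 GC boxes, at -53 to -48 and at -42 to -37, and the Ptger4 window held 4. The Hpgd window held a TATA box at 5 to 10, a motif found in 13.1% of windows, and 1 GC box. That window ended at 56294581, before the gene start given below (56294585), so the TATA box lies before that start. The Ptges window lay inside the gene span given below (30889471 to 30929863). Positions therefore hold for the RefSeq start only. Promoter windows were found for 9 of the 10 members, all but Ptgis. Among those 9 the CRE core occurred in 2, the E-box in 2, the palindrome in Ptgs2 only, the TATA box in 2, the GC box in 5 and the NF-kB consensus in 1, Ptges3, against 7.94% of windows. A match says only that these letters are present.

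The phospholipase that starts the pathway did not pass the test. Pla2g4a (ENSMUSG00000056220, chromosome 1, 149829618 to 149961290, minus strand, mm10) encodes cytosolic phospholipase A2. Its normalised counts were 66, 170 and 168 in untreated replicates 1, 2 and 3 and 89, 66 and 100 in the amisulpride replicates. Untreated replicate 1 was as low as the lowest treated library, so the groups overlapped. The means were 135 ± 59.5 and 85 ± 17.3 (SD, n = 3 each), with a log2 fold change of -0.56 ± 0.38 (SE) and an adjusted p of 0.638 (limma). Without untreated replicate 1 the log2 fold change was -1.0 and past the study thresholds (unadjusted p of 0.00811). Without untreated replicate 2 or 3 it was -0.33 or -0.34.

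The inducible cyclooxygenase showed the largest difference among the members. Ptgs2 (ENSMUSG00000032487, chromosome 1, 150100031 to 150108227, plus strand) had normalised counts of 719, 411 and 434 in the untreated replicates and 197, 78 and 191 in the amisulpride replicates. Every treated library lay below every untreated one, and the highest treated value was under the lowest untreated value by more than the spread of the 3 treated libraries. The mean went from 521 ± 172 to 155 ± 67.0 (SD, n = 3 each), or 29.8% of the untreated mean. The log2 fold change was -1.81 ± 0.37 (SE, 95% confidence interval -2.63 to -0.99), a 3.5-fold lower level. The unadjusted p of 0.000483 placed Ptgs2 at rank 80 of 12614 genes, and 0.848% of genes had a more negative log2 fold change. The adjusted p in limma was 0.0761, and 0.00209 with the replicate number as a block. Without amisulpride replicate 3 the log2 fold change was -2.01 and the adjusted p 0.024. Leaving out any other library gave -2.04 to -1.37, with adjusted p of 0.109 to 0.333 (limma). Ptgs2 was among the genes that the study itself had picked out from these libraries, so its direction here is not independent evidence.

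Within replicate numbers the log2 difference of Ptgs2 between the amisulpride and the untreated library was -1.86, -2.38 and -1.18 for replicates 1, 2 and 3. It was thus lower in 3 of 3 pairs, by the least in replicate 3. The 58.3 to 723 approximate reads behind its values put it among the better counted members.

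The constitutive cyclooxygenase COX-1 is encoded by Ptgs1 (ENSMUSG00000047250, chromosome 2, 36230426 to 36252272, plus strand). It was read at 38, 23 and 37 normalised counts in untreated and 23, 12 and 16 in amisulpride libraries. The groups touched at 23, with the remaining treated values under all untreated ones. The means were 32.7 ± 8.39 and 17 ± 5.57, the log2 fold change was -0.92 ± 0.41 (95% confidence interval -1.82 to -0.01) and the adjusted p was 0.454 (limma). The unadjusted p of 0.0475 was over 0.05 without untreated replicate 1 (0.137), untreated replicate 3 (0.139), amisulpride replicate 2 (0.138) or amisulpride replicate 3 (0.0641), with quantile scaling (0.0515) and with no filter on low values (0.0630). Only 8.94 to 44.4 approximate reads stood behind each value.

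The ratio of the 2 cyclooxygenases asks whether the inducible form differed more than the constitutive form in the same libraries. Ptgs2 made up 95%, 94.7% and 92.1% of their summed normalised counts in the untreated libraries and 89.5%, 86.7% and 92.3% in the amisulpride libraries. COX-2 was thus the main cyclooxygenase transcript in all 6 libraries, and amisulpride replicate 3 lay just above untreated replicate 3. On the log2 scale the ratio of Ptgs2 to Ptgs1 was 3.94 ± 0.37 in untreated and 3.05 ± 0.45 in amisulpride libraries (SD, n = 3 each), a difference of -0.89. This ratio was taken after adding 1 to each count, which puts all 3 amisulpride values under the untreated ones, unlike the shares above. An exact two-sided permutation test gave p = 0.1, the smallest that 3 against 3 libraries allow, or 0.3 after adjustment over the 3 ratios tested. With nothing added to the counts, an alternative chosen after seeing the data, the difference was -0.86 with p = 0.2 by the same exact test.

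Among terminal synthases, Ptges was the most abundant and did not pass the test. It encodes microsomal prostaglandin E synthase, the inducible form that works with COX-2 (ENSMUSG00000050737, chromosome 2, 30889471 to 30929863, minus strand). Its normalised counts were 738, 948 and 545 in untreated and 826, 790 and 322 in amisulpride libraries. The groups overlapped, and replicate 3 was the lowest of its group in both. The means of 744 ± 202 and 646 ± 281 gave a log2 fold change of -0.29 ± 0.37 (95% confidence interval -1.09 to 0.52) and an adjusted p of 0.817 (limma). Without amisulpride replicate 3 the sign turned, to 0.16.

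Ptgs2 and Ptges act in sequence, and their levels relative to each other differed in most libraries. Ptgs2 stood at 0.974, 0.434 and 0.796 normalised counts per count of Ptges in the untreated libraries and at 0.238, 0.0987 and 0.593 in the amisulpride libraries. The groups overlapped through untreated replicate 2 and amisulpride replicate 3. This ratio was chosen after its values were seen and was not tested. In the untreated libraries the 2 genes held the first and the second place among the members by mean level, with overlapping ranges. In the amisulpride libraries Ptges stayed first by mean level and Ptgs2 was the fourth, behind Ptges3 and Hpgd. The amisulpride means of Ptgs2 and Hpgd were close, at 155 ± 67.0 and 161 ± 76.6, with overlapping ranges. In amisulpride replicate 3 Ptgs2 was the higher of these, at 191 against 73.

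The other PGE synthases, Ptges2 and Ptges3, encode the forms usually described as constitutive. Ptges2 (ENSMUSG00000026820, chromosome 2, 32395896 to 32405772, plus strand) was read at 29, 39 and 17 in untreated and 26, 16 and 32 in amisulpride libraries. The groups overlapped fully, with a log2 fold change of -0.17 ± 0.43 and an adjusted p of 0.914 (limma). Of the 30-base words in the last 300 bases of its transcripts, 10.3% also occurred in Gm20236 or Gm37094, which were at 0 in every library.

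Ptges3 (ENSMUSG00000071072, chromosome 10, 128058954 to 128077272, plus strand), which also encodes the p23 cochaperone of HSP90, was read at 402, 293 and 305 in untreated and 269, 245 and 279 in amisulpride libraries. The treated values all lay under the untreated ones, by a small margin. The means were 333 ± 59.8 and 264 ± 17.5, the log2 fold change was -0.32 ± 0.24 (95% confidence interval -0.85 to 0.21) and the adjusted p was 0.674 (limma), so the difference did not pass the test.

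Ptges made up 96.2%, 96% and 97% of the sum of Ptges and Ptges2 in untreated and 96.9%, 98% and 91% in amisulpride libraries. The log2 ratio of the 2 was 4.71 ± 0.19 and 4.59 ± 1.16 (SD, n = 3 each), a difference of -0.12 with p = 1 by the exact permutation test. The inducible form was thus the main transcript of the 2 in every library, and the group difference was within the spread, most of which came from amisulpride replicate 3.

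Prostacyclin synthase, encoded by Ptgis (ENSMUSG00000017969, chromosome 2, 167191805 to 167240604, minus strand), was the 1 member with a fitted value above 0. It was read at 70, 33 and 14 normalised counts in untreated and 79, 33 and 55 in amisulpride libraries. The groups overlapped, replicate 2 was the same in both, and the difference lay mostly in replicate 3. The log2 fold change was 0.69 ± 0.53 (95% confidence interval -0.47 to 1.86) with an adjusted p of 0.688 (limma). Leaving out untreated replicate 3 gave 0.12, whereas leaving out untreated replicate 1 gave 1.24, which passed the study thresholds (unadjusted p of 0.0362).

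**Figure D2:**
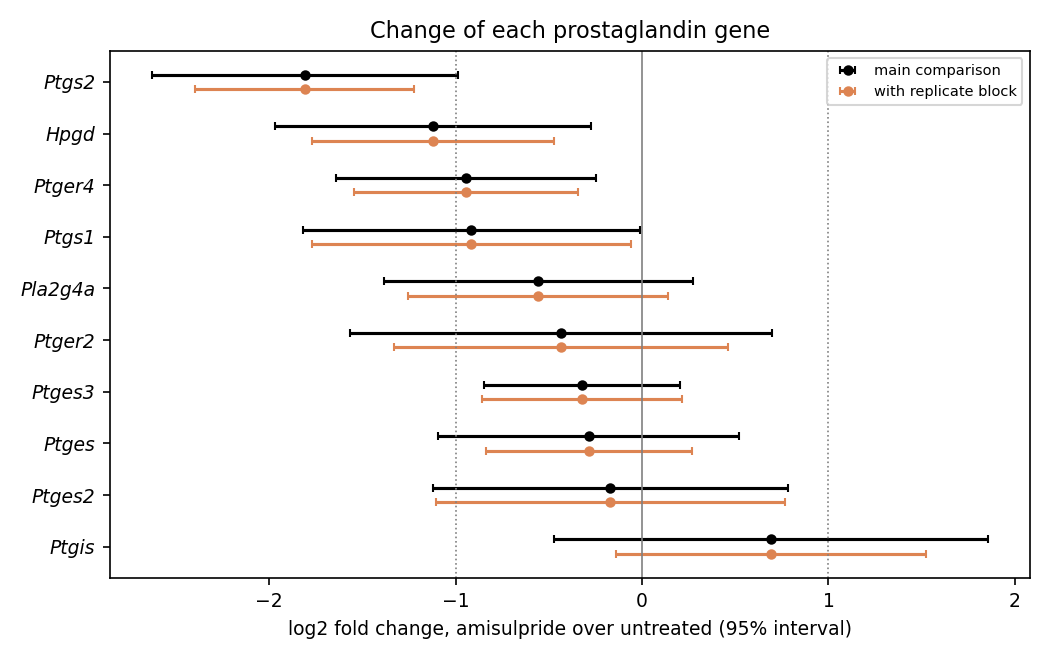
Fitted log2 fold change of amisulpride over untreated for each member with its 95% confidence interval from limma, in black for the comparison as reported and in orange with the replicate number as a block, and dotted lines at -1 and 1. Ptgs2 (-1.81) and Hpgd (-1.12) lie past the dotted line, the black interval of Ptger4 (-0.94) excludes 0 and that of Ptgis (0.69) includes it.

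The receptors for PGE2 that raise cAMP are EP2 and EP4. Ptger4, which encodes EP4 (ENSMUSG00000039942, chromosome 15, 5206661 to 5244187, minus strand), was read at 131, 149 and 86 in untreated and 73, 70 and 45 in amisulpride libraries. All treated values lay under all untreated ones, and replicate 3 was the lowest in both groups. The mean of 122 ± 32.4 stood against 62.7 ± 15.4 (SD, n = 3 each), 51.4% of the untreated mean. The log2 fold change of -0.94 ± 0.32 (95% confidence interval -1.64 to -0.25) had an unadjusted p of 0.0123 and an adjusted p of 0.275 (limma). It stopped short of the threshold on size, which it passed without untreated replicate 3 (-1.18), amisulpride replicate 1 (-1.07) or amisulpride replicate 2 (-1.04). Without amisulpride replicate 3 it was -0.73, and without untreated replicate 2 the unadjusted p was 0.0618. Within replicate numbers the log2 differences were -0.83, -1.08 and -0.92, the most even of the members lower in 3 of 3 pairs. The gene overlaps Ttc33 on the opposite strand, which was read at 798, 821 and 686 against 805, 539 and 723, and whether counting used the strand is not given in the sources used here.

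EP2 is encoded by Ptger2 (ENSMUSG00000037759, chromosome 14, 44988195 to 45003820, plus strand), which was lower in level than Ptger4 in every library. Its normalised counts were 17, 27 and 39 in untreated and 9, 33 and 23 in amisulpride libraries. The groups overlapped, with a log2 fold change of -0.43 ± 0.52 (95% confidence interval -1.57 to 0.70) and an adjusted p of 0.799 (limma). There were 7.71, 5.52 and 2.21 counts of Ptger4 per count of Ptger2 in the untreated and 8.11, 2.12 and 1.96 in the amisulpride libraries. The log2 ratio differed by -0.51 between the groups (2.14 ± 0.91 and 1.63 ± 1.09), with p = 0.6 by the exact permutation test and 0.9 after adjustment, so no difference in receptor balance was detectable with 3 libraries a group. Leaving out 1 library moved this difference between -1.14 (without amisulpride replicate 1) and -0.14 (without untreated replicate 1).

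Of the other prostanoid receptors, Ptger1 (EP1) and Ptger3 (EP3) were too low to test, at 3, 5 and 0 against 2, 12 and 7 and at 0, 0 and 0 against 0, 0 and 7. The prostaglandin D2 receptor gene Ptgdr was at 0 in all 6 libraries. The prostaglandin F receptor gene Ptgfr was the most abundant of these at 174, 192 and 118 against 151, 163 and 54. The prostacyclin receptor gene Ptgir was read at 17, 21 and 23 against 24, 13 and 9. Neither Ptgfr nor Ptgir passed the test (adjusted p of 0.696 and 0.752, limma), and both had their lowest value in amisulpride replicate 3.

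The transcript of the enzyme that inactivates PGE2 fell, as did that of COX-2. Hpgd (ENSMUSG00000031613, chromosome 8, 56294585 to 56321043, plus strand) was read at 259, 401 and 309 in untreated and 202, 209 and 73 in amisulpride libraries. All treated values lay under all untreated ones, and amisulpride replicate 3 was far below the other two. The mean went from 323 ± 72 to 161 ± 76.6 (SD, n = 3 each), 49.9% of the untreated mean, with a log2 fold change of -1.12 ± 0.39 (95% confidence interval -1.97 to -0.27). The unadjusted p was 0.0141 and the adjusted p 0.285 (limma), or 0.0698 with the replicate block. Within replicate numbers the log2 differences were -0.36, -0.94 and -2.07, the widest range among the members lower in 3 of 3 pairs. Without amisulpride replicate 3 the log2 fold change was -0.63 and no longer past the threshold, and without untreated replicate 2 it was -0.95.

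The inward transporter belongs to the same removal step. Slco2a1, which encodes the prostaglandin transporter that carries PGE2 into the cell before Hpgd acts on it, was read at 144, 150 and 105 in untreated and 82, 70 and 36 in amisulpride libraries. The groups did not overlap, and its lowest value was in amisulpride replicate 3, as it was for Hpgd. Its log2 fold change was -1.14 ± 0.34, with an unadjusted p of 0.0066 and an adjusted p of 0.224 (limma), so it fell at the study thresholds. Without amisulpride replicate 3 the log2 fold change was -0.79. The outward transporter gene Abcc4 was read at 55, 46 and 43 against 62, 27 and 38 (adjusted p of 0.838), with overlapping groups.

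**Figure D3:**
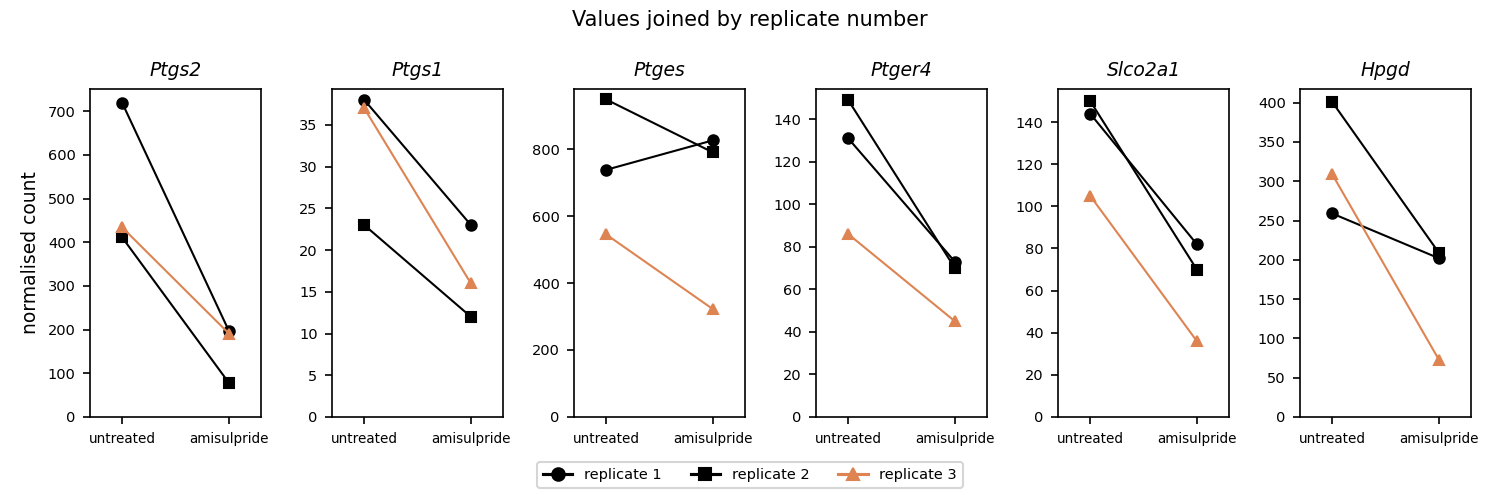
Normalised counts of Ptgs2, Ptgs1, Ptges, Ptger4, Slco2a1 and Hpgd in untreated and amisulpride libraries (linear axes from 0, a scale for each gene), with libraries of the same replicate number joined by a line and replicate 3 in orange. All 3 lines run downwards except for Ptges, where replicate 1 runs from 738 to 826, and the line of replicate 3 for Hpgd runs from 309 to 73.

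A list of 30 other genes for prostanoid synthesis, transport, breakdown and reception gives the surroundings of the members. Of these 15 passed the filter, 10 with a log2 fold change below 0, against 49.9% of all genes, and 5 above. The median was -0.15. At the study thresholds 2 were lower, Slco2a1 and Pla2g7, against 3.01% of all genes, and 0 higher, against 2.69%. In limma 0 had an adjusted p under 0.05, against 0.285% of all genes. An unadjusted p under 0.05 was reached by 3, of which 2 were lower and 1 higher, against 5.77% and 5.11% of all genes. Pla2g7, which encodes the secreted phospholipase that degrades platelet-activating factor, was read at 24, 28 and 38 in untreated and 4, 3 and 18 in amisulpride libraries. It fell with a log2 fold change of -2.07 ± 0.61 and an adjusted p of 0.213 (limma), but treated replicates 1 and 2 were at or near the limit that a count of 0 allows. In the other direction, the phospholipase gene Pla2g12a was read at 211, 224 and 166 against 305, 300 and 344, with separated groups, a log2 fold change of 0.67 ± 0.24, an unadjusted p of 0.0178 and an adjusted p of 0.313 (limma). Pla2g10, Pla2g2a, Pla2g2f, Ptgdr and Ptgds were at 0 in every library.

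Genes known to act on Ptgs2 gave the next comparison, since its promoter and transcript are regulated by NF-kB, C/EBP and CREB factors and by RNA-binding proteins. All 18 listed genes passed the filter, 13 with a log2 fold change below 0, against 49.9% of all genes, and 5 above. Their median was -0.19. None passed the study thresholds, against 3.01% of all genes lower and 2.69% higher. None had an adjusted p under 0.05 in limma, against 0.285% of all genes. Only 1 gene, which was lower, had an unadjusted p under 0.05, close to the 5.77% of all genes in that direction. None was higher at that level, against 5.11% of all genes. That gene, Cebpb, encodes C/EBP beta and was read at 458, 386 and 308 in untreated and 300, 220 and 213 in amisulpride libraries. The groups did not overlap, the log2 fold change was -0.65 ± 0.26 and the adjusted p was 0.382 (limma). Cebpd, which encodes C/EBP delta, had separated groups in the other direction, at 637, 797 and 468 against 845, 806 and 895, with a log2 fold change of 0.45 ± 0.26 and an adjusted p of 0.564 (limma). Of the genes for RNA-binding proteins, Zfp36l2 had separated groups and was lower, at 757, 1139 and 823 against 592, 671 and 633. Its log2 fold change was -0.50 ± 0.24 and its adjusted p 0.498 (limma). The NF-kB subunit genes Nfkb1 and Rela had log2 fold changes of 0.28 ± 0.35 and -0.29 ± 0.24, and Nfkbia, which encodes the inhibitor of NF-kB and is itself an NF-kB target, was read at 2162, 2025 and 1566 against 2096, 1401 and 655, with overlapping groups.

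EP2 and EP4 signal through cAMP, so genes known to respond to cAMP were counted as a further list. Of 15 names 14 were in the table and 11 passed the filter, 3 with a log2 fold change below 0, against 49.9% of all genes, and 8 above. Their median was 0.34. Cebpb, which also stands in the list of Ptgs2 regulators, was the 1 gene with an unadjusted p under 0.05, against 5.77% of all genes in that direction and 5.11% in the other. None passed the study thresholds, against 3.01% of all genes lower and 2.69% higher. None had an adjusted p under 0.05 in limma, against 0.285% of all genes. Fosb, a member of the Fos family of transcription factors, was read at 9, 16 and 11 against 24, 17 and 34, with separated groups and a log2 fold change of 0.98 ± 0.45 (unadjusted p of 0.0529, adjusted p of 0.465, limma).

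**Figure D4:**
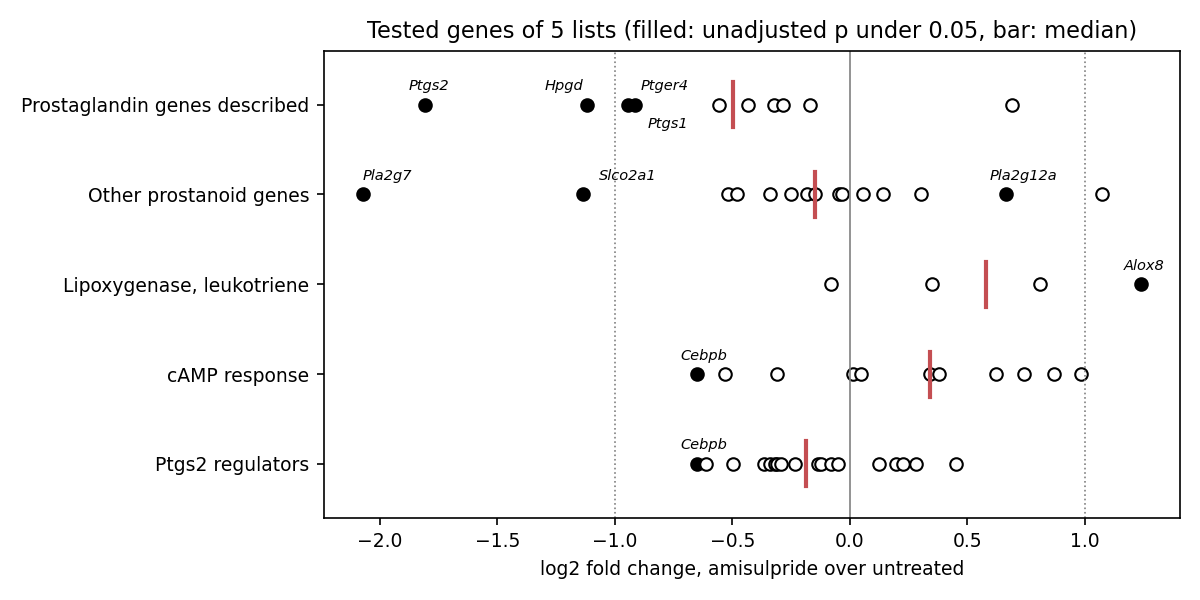
Fitted log2 fold change of every tested gene in the prostaglandin members and 4 accompanying lists, 1 circle per gene, filled where the unadjusted p was under 0.05, with red bars at the medians and dotted lines at -1 and 1. Medians were -0.50 for the members, -0.15 for the other prostanoid genes, 0.58 for the 4 tested lipoxygenase and leukotriene genes, 0.34 for the cAMP response genes and -0.19 for the Ptgs2 regulators.

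The 5 protein-coding genes whose profile over the 6 libraries was most like that of Ptgs2, among 7244 with a mean of at least 50 normalised counts, were Ehd2, Psmd12, Galk1, Chordc1 and Ehbp1l1. Their Pearson correlations of log2 values with Ptgs2 were 0.999, 0.9916, 0.9916, 0.9888 and 0.9883. Psmd12 encodes a subunit of the proteasome and Galk1 encodes galactokinase. Galk1, the gene of the 5 with the largest difference, was read at 579, 371 and 390 against 234, 139 and 206, a log2 fold change of -1.21. The 6 points fall in 2 groups and share the depth of their libraries, and no test was made. Among the members themselves the correlation with Ptgs2 over the same 6 libraries was 0.918 for Ptgs1, 0.891 for Ptges3, 0.677 for Ptger4 and 0.451 for Hpgd, and it was 0.0808 for Ptges.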

How the data were processed

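Total RNA of 3 untreated and 3 amisulpride-treated hTNFtg SF cultures was read by QuantSeq 3′ mRNA sequencing on an Ion Proton. The authors mapped reads to mm10 with TopHat2 and remaining reads with Bowtie2, counted them per gene with GenomicRanges and normalised them with DESeq through metaseqr. Versions were not given in the sources used here. The values they deposited are recorded as a score: normalised counts rounded to whole numbers. That each library was scaled with a single factor was inferred from the spacing of low values. The deposited p-values and fold changes of the authors' own comparison, and a further 12 columns that give these libraries on other scales, were left out.

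The comparison used limma 3.58.1 (R 4.3.3), two-sided, on the log2 of the normalised count plus 1, with moderation along the mean-variance trend. Only the 12614 genes at 10 or more in 3 or more libraries were tested, with Benjamini-Hochberg adjustment over them. Fold changes on this scale understate those of low genes. Ratios of 2 genes were compared by an exact permutation test over all 20 assignments of libraries to groups. The fit was tested on simulated data with known changes.

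The value of 1 read was estimated from the spacing of low values, 0.8335 to 1.79 normalised counts per library. It is uncertain for untreated replicate 1, so reads are approximate and no count test was run. Reads carried no molecular identifiers, so floors cover counting error only. Deviations from the group means correlated at 0.229, 0.240 and 0.201 between libraries of the same replicate number and at -0.149 to -0.0777 between different numbers. The numbers were therefore taken to pair the libraries, and the fit with the replicate number as a block was an alternative. The main comparison did not use this pairing, so p-values and intervals given without mention of the block leave it out. The others were pseudocounts, no filter, upper-quartile and quantile scaling, library weights and leaving out each library.

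All members were named. From the accompanying lists, genes with an unadjusted p under 0.05 were named, together with a few chosen after their values were seen: the receptors, Abcc4, Nfkb1, Rela, Nfkbia, Cebpd, Zfp36l2, Fosb, Lyz2, Ptprc, C1qb, Adgre1, Aif1, Col1a1, Col1a2, Col3a1, Fap, Lta4h, Alox5ap, Alox5 and genes at 0. The members and lists were chosen with earlier results of these data known. Promoter sequences are from RefSeq on GRCm38.p6.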

Additional observations from a re-analysis of the deposited data

How the results depend on the processing

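Ptgs2 stayed past the study thresholds in all 13 alternatives, with log2 fold changes of -2.04 to -1.37 and adjusted p from 0.00209 to 0.333 (limma). The number of members past the study thresholds, 2 in the main comparison, was 1 with library weights, where Hpgd was at -0.88, and 1 to 4 when a library was left out. It was 4 when amisulpride replicate 1 was left out, all lower, and 4 when untreated replicate 1 was left out, of which 3 were lower and 1, Ptgis, was higher. The 1 came without amisulpride replicate 3. The number with an adjusted p under 0.05, 0 in the main comparison, was 1 with the replicate block, 1 with library weights and 0 to 1 when a library was left out, and the 1 came without amisulpride replicate 3. With the block, 263 of all genes had an adjusted p under 0.05, against 36 without it. The block changed no other member's call. Over all genes 719 were past the study thresholds, 1313 without the filter on low values, and 563 to 1000 when a library was left out. The sign turned for Ptges with library weights (0.0042) and over the fits that leave out a library (-0.52 to 0.16), for Ptges2 (-0.49 to 0.10) and Ptger2 (-0.81 to 0.070), and for the log2 ratio of Ptges to Ptges2 (-0.59 to 0.53). The causes were not tested. Of 130 values for members under the alternatives, 115 kept their direction and their side of the thresholds. With 3 libraries a group an exact permutation test cannot go below 0.1 and the sign-flip test of pairs not below 0.25, so the ratios could not pass. Depth limits Ptgs1, Ptges2 and Ptger2 most, with under 50 approximate reads in every library.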

Other observations

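Arachidonic acid that is not used by cyclooxygenases can be turned into leukotrienes and other lipids by lipoxygenases. Of 14 genes for these steps 4 passed the filter, 1 with a log2 fold change below 0, against 49.9% of all genes, and 3 above. The study thresholds were passed by 1, which was higher, against 2.69% of all genes in that direction. Alox8, which encodes an arachidonate lipoxygenase, was read at 8, 15 and 14 normalised counts in untreated and 45, 27 and 21 in amisulpride libraries. The groups did not overlap. It rose with a log2 fold change of 1.24 ± 0.46, an unadjusted p of 0.0195 and an adjusted p of 0.327 (limma), in 3 of 3 replicate pairs. Its log2 fold change was 0.98 when untreated replicate 1 was left out and 0.94 when amisulpride replicate 1 was left out, both under the size threshold. Lta4h, which encodes the hydrolase that makes leukotriene B4, was read at 154, 137 and 214 against 211, 282 and 157, and Alox5ap, which encodes the protein that presents arachidonic acid to 5-lipoxygenase, at 195, 106 and 83 against 221, 72 and 91. Both had overlapping groups. Alox5 itself was too low to test, at 7, 3 and 11 against 4, 0 and 5, and Alox12b, Alox15, Aloxe3 and Cysltr2 were at 0 in every library.

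The myeloid and fibroblast marker lists were mixed in direction. Of 16 myeloid markers tested 9 had a log2 fold change below 0, against 49.9% of all genes, and 7 above, with a median of -0.14. Cd14 and Csf1r were lower past the study thresholds (-1.74 and -1.01), against 3.01% of all genes. Their unadjusted p was 0.00223 and 0.0486, and their adjusted p 0.144 and 0.456 (limma). Csf1r no longer passed with a pseudocount of 5. Of the fits that leave out a library, Csf1r passed only in the one without amisulpride replicate 3. Leaving out a library moved Csf1r between -1.57 and -0.53. In the other direction C1qb had separated groups, at 44, 35 and 38 against 53, 50 and 109 (0.75, unadjusted p of 0.0573, limma), and Adgre1 and Aif1 were at 0.83 and 0.70 with overlapping groups. Of 15 fibroblast markers 6 were below 0 and 9 above, with a median of 0.16. S100a4 was lower past the study thresholds (-1.31, unadjusted p of 0.00147, adjusted p of 0.117, limma), against 3.01% of all genes. Prg4, which encodes lubricin, was at -0.92 with an unadjusted p under 0.05. The collagen genes Col1a1, Col1a2 and Col3a1 were at 0.49, 0.71 and 0.71, with unadjusted p of 0.239, 0.0601 and 0.119 (limma). Of the endothelial markers only Egfl7 passed the filter. It was lower with separated groups (-0.83, unadjusted p of 0.0386, adjusted p of 0.424, limma), and leaving out a library moved it between -1.07 and -0.47. The part of all these markers in the values of the prostaglandin genes was not tested.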
